A study of Drosophila melanogaster with 8 samples.

Results

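The genes described here make, load or take back the small-molecule transmitters of the fly nervous system. They are 10 of the 17676 genes in a table of read counts from adult Drosophila melanogaster heads: ChAT, VAChT, Gad1, VGAT, VGlut, ple, Ddc, Vmat, DAT and SerT. They were chosen by name, with earlier results of these data known, as were the gene lists used below. Each of the 10 symbols matched 1 FlyBase identifier in the table. The libraries fall into 3 groups by title. The control group (3 libraries) has the genotype entry FBXO11 WT, and the RNA1 group (3 libraries) the entry FBXO11 KD1. The RNA2 group (2 libraries) holds 1 library entered as FBXO11 KD2 and 1 entered as FBXO11 KD3. The tests treat these 2 libraries as replicates, so any difference between KD2 and KD3 counts there as spread. FBXO11 is an F-box protein, the part of a cullin ubiquitin ligase that binds the proteins to be marked for degradation. The design describes its knockdown as neuronal. All 8 libraries are entered as batch 1, and the control titles carry the words neuronal knockdown too. The sources used here do not give the driver, the RNA interference lines, what the controls carried, or the age and sex of the flies. Nothing in the labels says that libraries of a group came from separate sets of flies, so p-values measure only the spread between these libraries, which may be technical.

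A neuron releases its transmitter from vesicles, and each chemical class needs its own set of genes. A synthetic enzyme makes the transmitter, a vesicular transporter loads it, and for the monoamines a plasma membrane transporter takes it back up after release. Acetylcholine is the main fast excitatory transmitter of the fly brain, GABA the main inhibitory transmitter there, and glutamate the transmitter of fly motor neurons and of many central cells. Dopamine and serotonin are released by small sets of neurons that modulate behaviour. Tyrosine hydroxylase and dopa decarboxylase work outside neurons as well, because fly epidermis uses dopamine to tan and harden cuticle.

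All libraries were deep, with 32434805 to 41589222 counted reads each, and the least abundant of the 10 genes, DAT, had 910 to 1216 reads in every library. FBXO11 itself was at 97.4 to 108 CPM in the controls (CPM, counts over each library's total times its TMM factor), at 37.4 to 42.5 CPM in RNA1 and at 44.8 and 52.7 CPM in RNA2. It fell by 1.37 ± 0.09 (SE) on the log2 scale in RNA1 and by 1.08 ± 0.10 in RNA2, with an FDR (adjusted p) of 4.9e-05 and 0.00054 in the edgeR quasi-likelihood test. Neuronal markers were present throughout: the 15 pan-neuronal markers, such as nSyb, elav, Syt1 and brp, summed to 11692 to 12917 CPM in the controls. Their sum was 10609 to 13107 CPM in RNA1 and 11631 and 12620 CPM in RNA2. Heads also hold glia, photoreceptors, muscle, fat body, hemocytes and epidermis. In whole heads, fewer cells of a type cannot be told apart from less RNA per cell. Genetic background may differ with the genotype entry and cannot be told apart from the knockdown.

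Of the 10 genes, 4 fell in RNA1 and none rose. Those that passed an FDR of 0.05 were ChAT, VGAT, Vmat and SerT, each to between 69.4% and 79.9% of its control level. Over all 11081 genes tested, 10.3% passed in that comparison (edgeR), 5.25% lower and 5.01% higher. In RNA2, 1 of the 10 fell, ChAT, where 3.78% of all genes passed, 2.02% lower and 1.76% higher. At an unadjusted edgeR p under 0.05 were 6 of the 10 in RNA1 and 7 in RNA2, beside 26.7% and 18.4% of all genes. DESeq2 called 4 of the 10 in RNA1 and 3 in RNA2, beside 14.8% and 8.31% of all genes. Between RNA2 and RNA1 no gene of the 10 passed, with 3 at an unadjusted p under 0.05 (VGAT, DAT and SerT) and 0 called by DESeq2 or limma-voom. In that comparison 0.28% of all genes passed, 0.0902% lower and 0.19% higher in RNA2, and 7.66% had an unadjusted p under 0.05. DESeq2 called 1.33% of all genes there and limma-voom 0.253%. The fold changes were mostly of 1 sign. Of the 10 genes, 9 had a negative fold change in RNA1 and all 10 in RNA2, with medians of log2 -0.27 and -0.29, beside medians of 0.0069 and 0.0097 over all genes tested. Over the 11081 genes tested, 5387 were negative in RNA1 and 5342 in RNA2. Both comparisons use the same 3 control libraries and are not independent.

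**Figure D1:**
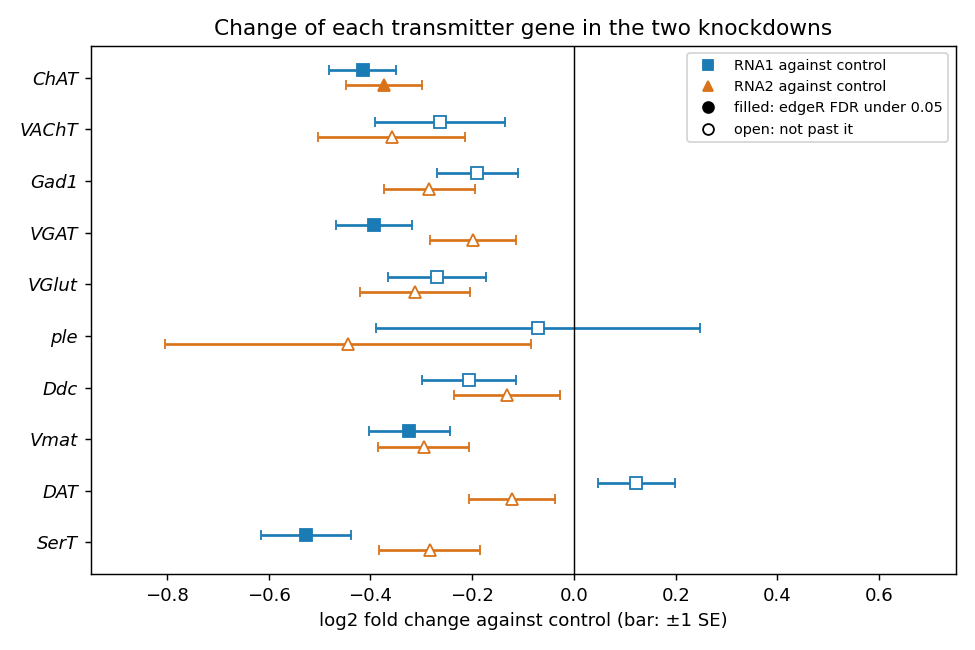
Log2 fold change against control (x axis) for each of the 10 transmitter genes (y axis), with bars of 1 standard error. Squares are RNA1 (3 against 3 libraries) and triangles RNA2 (2 against 3), filled where the edgeR FDR was under 0.05. The filled symbols are ChAT in both knockdowns and VGAT, Vmat and SerT in RNA1, and ple has the widest bars.

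Levels were first compared per length, as RPKM, the CPM per kilobase of merged exon. Gad1 was the most abundant of the 10 in control heads at 347 ± 5.67 (SD, n = 3). It was followed by Ddc at 106 ± 6.64, Vmat at 79.2 ± 4.21, VGlut at 63.4 ± 5.91 and VGAT at 53.9 ± 1.62. A second group lay close together, with ple at 47.4 ± 10.8, VAChT at 47.1 ± 5.70 and ChAT at 46.3 ± 2.04 in the same unit. The control ranges of VGAT and ple overlapped, as did those of ple and VAChT and of VAChT and ChAT, so these neighbours in the order did not differ beyond their spread. The monoamine reuptake transporters were lowest, SerT at 13.1 ± 0.376 and DAT at 9.54 ± 0.357 RPKM, and their control ranges did not overlap.

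**Figure D2:**
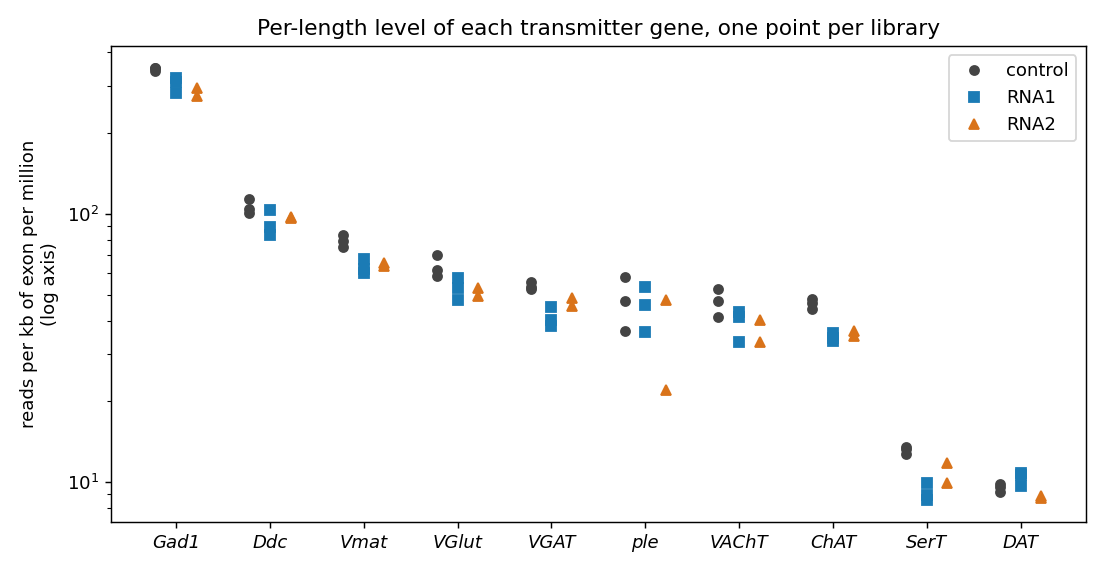
RPKM (log axis) for the 10 genes, ordered by control mean, with 1 point per library. Gad1 stands above the rest in each group, SerT and DAT lie lowest, and the points of ple spread widest.

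Acetylcholine is made by ChAT, choline acetyltransferase, and loaded by VAChT, and the fly carries both genes in 1 cholinergic locus. On build BDGP6 both start at base 18705501 of 3R, plus strand. ChAT (FBgn0000303) lies at 3R:18705501-18732344 and VAChT (FBgn0270928) at 3R:18705501-18718916. They share a first exon of 606 bases, which is 15.1% of the exon length of ChAT and 8.5% of that of VAChT. The other exon of VAChT, 6492 bases long, lies inside the first intron of ChAT. The sources used here do not say how the authors' counting treated reads of the shared exon, so the values of both genes are uncertain to that extent.

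**Figure D3:**
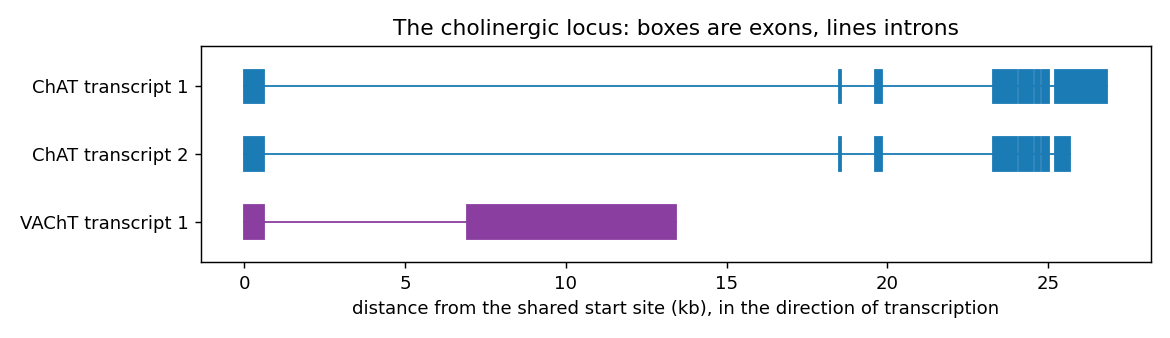
Exons (boxes) and introns (lines) of the annotated ChAT and VAChT transcripts by distance in kb from their shared start. The first box is common to all 3 transcripts, and the second VAChT exon sits inside the first ChAT intron.

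ChAT was at 193, 187 and 177 CPM in control replicates 1 to 3. In RNA1 it was at 135, 145 and 138 CPM, and in RNA2 at 139.9 and 147 CPM. Every knockdown library lay below every control, and the RNA1 and RNA2 values overlapped. ChAT fell by 0.41 ± 0.07 on the log2 scale in RNA1 (edgeR FDR 0.0056) and by 0.37 ± 0.07 in RNA2 (FDR 0.025). The RNA1 call held in all 16 alternative settings, with an FDR of at most 0.031. The RNA2 call was lost without control replicate 1 (FDR 0.094), 2 (0.097) or 3 (0.052) and without RNA2 replicate 1 (0.21) or 2 (0.056).

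VAChT was at 374, 336 and 293 CPM in the controls, at 293, 306 and 236 CPM in RNA1 and at 236 and 286 CPM in RNA2. Its lowest control lay within the RNA1 values and above both RNA2 values. The fold changes, log2 -0.26 ± 0.13 in RNA1 and -0.36 ± 0.14 in RNA2, did not pass (edgeR FDR 0.22 in both). Per length, the ratio of ChAT to VAChT was 0.915 to 1.07 in the controls, 0.814 to 1.04 in RNA1 and 0.909 and 1.05 in RNA2. The ratios of all 3 groups overlapped, and the different outcome of the tests does not show that the genes changed differently. The spread of VAChT between libraries was the larger of the pair, with an SD of 40.4 CPM in the controls beside 8.20 CPM for ChAT.

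GABA is made by Gad1, glutamate decarboxylase, and loaded by VGAT. Gad1 (FBgn0004516; 3L:4074077-4088744, minus strand) was at 1256, 1289 and 1294 CPM in the controls. RNA1 replicates 1 to 3 had 1148, 1182 and 1036 CPM, while RNA2 had 1017 and 1084 CPM. All 5 knockdown values lay below the 3 control values, but neither fold change passed (log2 -0.19 ± 0.08 in RNA1, edgeR FDR 0.16, and -0.28 ± 0.09 in RNA2, FDR 0.12). DESeq2 called Gad1 in RNA2 (FDR 0.022), and over the 16 alternatives tried its FDR there ran up to 0.52.

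VGAT (FBgn0033911; 2R:14198478-14201249, minus strand) was at 144, 150.5 and 142 CPM in the controls and at 121, 109 and 103 CPM in RNA1. The RNA2 libraries held 123 and 131 CPM, above the RNA1 libraries and below the controls, so the 3 groups did not overlap. VGAT fell by 0.39 ± 0.08 on the log2 scale in RNA1 (edgeR FDR 0.012). That call was lost without control replicate 2 (FDR 0.058) or RNA1 replicate 2 (0.054). In RNA2 its change was log2 -0.20 ± 0.08 (FDR 0.25). RNA2 exceeded RNA1 by log2 0.20 ± 0.08, with an unadjusted edgeR p of 0.043 and an FDR of 0.63.

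Glutamate needs no dedicated synthetic enzyme, and VGlut, its vesicular transporter, serves as the marker of glutamatergic neurons. VGlut (FBgn0031424; 2L:2400295-2410662, plus strand) was at 399.97, 353 and 334 CPM in the controls. It was at 302, 329 and 272 CPM in RNA1 and at 282 and 302 CPM in RNA2. The knockdown values all lay below the lowest control, by a margin smaller than the spread of the controls. Neither fold change passed, at log2 -0.27 ± 0.10 in RNA1 (edgeR FDR 0.11) and -0.31 ± 0.11 in RNA2 (FDR 0.16). Of the vesicular transporters VAChT, VGAT, VGlut and Vmat, VGAT and Vmat passed edgeR in RNA1. None of the 4 passed edgeR in RNA2, where DESeq2 called Vmat. Over all genes, 10.3% passed edgeR in RNA1 and 3.78% in RNA2, where DESeq2 called 8.31%.

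**Figure D4:**
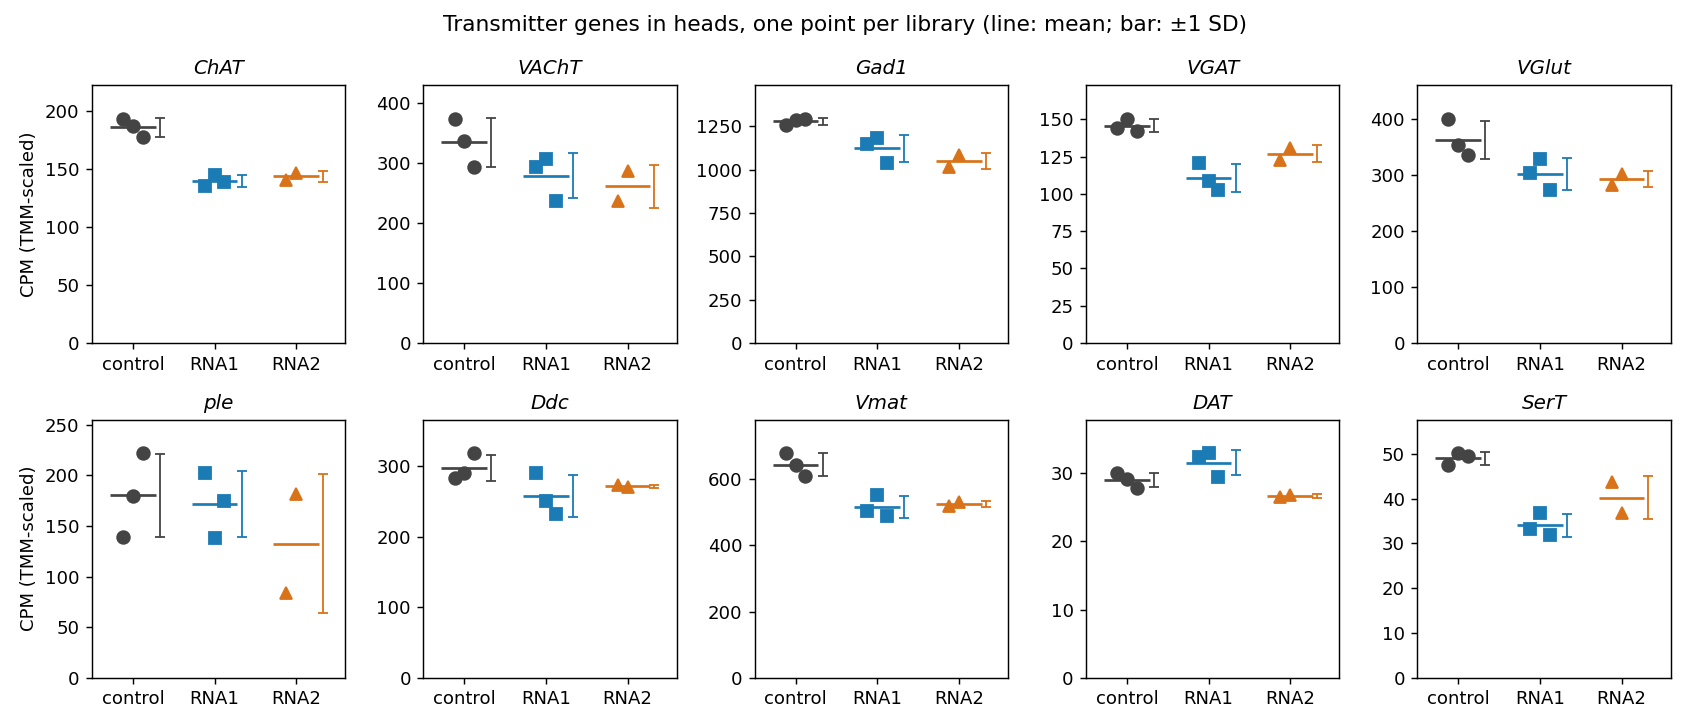
TMM-scaled CPM (y axis, from 0) of the 10 genes, with 1 point per library, a line at the group mean and a bar of 1 SD. All 5 knockdown points lie below the 3 control points for ChAT, Gad1, VGAT, VGlut, Vmat and SerT, while those of VAChT, ple, Ddc and DAT overlap the controls. How many of all genes tested separate in this way was not counted.

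Dopamine and serotonin share their last enzyme and their vesicular loading. ple, tyrosine hydroxylase, carries out the rate-limiting step of dopamine synthesis, and Ddc, dopa decarboxylase, completes both dopamine and serotonin. ple (FBgn0005626; 3L:6713356-6719525, minus strand) was the most variable of the 10 genes. It stood at 139, 180.0 and 222 CPM in the controls, at 202, 138 and 174 CPM in RNA1 and at 83.8 and 181 CPM in RNA2. The RNA2 replicate 1 library was lowest, and the other 4 knockdown libraries lay within or at the edge of the control range. The RNA2 libraries carry different genotype entries, so the gap between them cannot be told apart from that difference. The fold changes had wide errors, log2 -0.07 ± 0.32 in RNA1 (edgeR FDR 0.91) and -0.44 ± 0.36 in RNA2 (FDR 0.56). Without RNA2 replicate 1 the RNA2 value was log2 0.0082, and without RNA2 replicate 2 it was -1.11 (FDR 0.086).

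Other genes were low in the same RNA2 library, and they are named here after their values were seen. As for ple, a gap between the RNA2 libraries cannot be told apart from their genotype entries. The ebony gene e, whose enzyme conjugates dopamine and histamine to beta-alanine, was at 79.3 to 154 CPM in the controls and at 36.3 and 99.6 CPM in RNA2. Its partner b (black), which makes beta-alanine, was at 65.7 to 97.4 CPM and at 36.6 and 70.3 CPM. The pterin enzyme genes Pu (GTP cyclohydrolase) and pr, which make the cofactor of tyrosine hydroxylase and also feed the red eye pigments, were at 344 and 671 CPM and at 109 and 203 CPM in RNA2. Their control ranges were 991 to 1116 CPM and 278 to 293 CPM. Unlike ple, Pu and pr were below every control in the other knockdown libraries too, with 649, 569 and 741 CPM for Pu and 221, 179 and 248 CPM for pr in RNA1. In RNA1 e was at 103, 68.0 and 96.2 CPM and b at 70.0, 55.0 and 84.1 CPM, values that overlapped the controls. The 9 tanning and cuticle genes, which include e and b but not ple or Ddc, had a median of log2 -0.83 against the control mean in RNA2 replicate 1 and between -0.45 and 0.19 in the other libraries. Their summed level was 963 to 1025 CPM in the controls, 836 to 959 CPM in RNA1 and 737 and 871 CPM in RNA2. Not every gene of that list was low there. The gene t (tan) was at 539 CPM in RNA2 replicate 1, within its control range of 526 to 574 CPM. The part of all these genes in the level of ple was not tested.

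**Figure D5:**
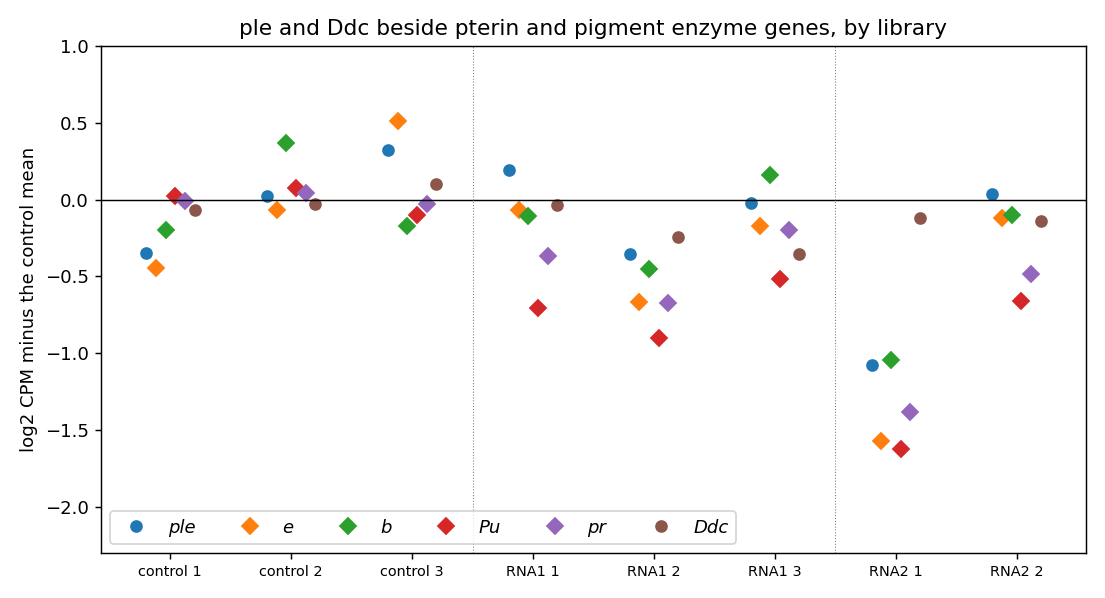
Log2 CPM minus the control mean (y axis) for ple and Ddc (circles) and for e, b, Pu and pr (diamonds) in each of the 8 libraries (x axis). In RNA2 replicate 1 ple and the 4 diamonds lie more than 1 log2 unit below the control mean, whereas Ddc does not.

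Ddc (FBgn0000422; 2L:19116483-19120306, minus strand) did not share that low value. It was at 283, 291 and 318 CPM in the controls, at 290.0, 250.0 and 232 CPM in RNA1 and at 273 and 269.6 CPM in RNA2. The first RNA1 library lay inside the control range and the other knockdown libraries below it. Neither fold change passed (log2 -0.21 ± 0.09 in RNA1, edgeR FDR 0.19, and -0.13 ± 0.10 in RNA2, FDR 0.54). Exons of Ddc overlap those of CG10561 on the opposite strand by 88 bases, or 3.1% of the exon length.

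Vmat loads dopamine, serotonin, octopamine and histamine into vesicles. Vmat (FBgn0260964; 2R:13513132-13534251, minus strand) was at 679, 645 and 610.0 CPM in the controls. Its level was 505, 552 and 488 CPM in RNA1 and 518 and 532 CPM in RNA2. Every knockdown library lay below every control. Vmat fell by 0.32 ± 0.08 on the log2 scale in RNA1 (edgeR FDR 0.032), and its value in RNA2 was -0.30 ± 0.09 (FDR 0.11). The RNA1 call was lost with any 1 of the control or RNA1 libraries left out (FDR 0.051 to 0.13), and DESeq2 called Vmat in RNA2 (FDR 0.025, and up to 0.45 over the alternatives). Its exons overlap CG13330 on the opposite strand over 2129 bases, 26.2% of their length. CG13330 had 23 to 86 reads per library beside 16060 to 26525 for Vmat. How the authors' counting used strand or treated reads of the shared bases is not given. The values of Vmat are uncertain to that extent.

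SerT and DAT clear serotonin and dopamine from the synapse. SerT (FBgn0010414; 2R:24404595-24411074, minus strand) was at 47.4, 50.1 and 49.4 CPM in the controls. Its level was 33.3, 36.8 and 31.9 CPM in RNA1 and 43.7 and 36.8 CPM in RNA2. All knockdown values lay below the controls, and the lower RNA2 value lay beside the highest RNA1 value. SerT had the largest fall of the 10 genes in RNA1, 0.53 ± 0.09 on the log2 scale (edgeR FDR 0.0072), and the call held in all 16 alternative settings (FDR at most 0.036). In RNA2 it was at log2 -0.28 ± 0.10 (FDR 0.16).

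DAT (FBgn0034136; 2R:16558567-16565238, minus strand) was the gene of the 10 with a positive fold change in RNA1. It was at 30.0, 29.2 and 27.8 CPM in the controls, at 32.4, 32.9 and 29.4 CPM in RNA1 and at 26.5 and 26.9 CPM in RNA2. Its RNA1 values overlapped the controls, and its RNA2 values lay just below them. The changes were log2 0.12 ± 0.08 in RNA1 (edgeR FDR 0.33) and -0.12 ± 0.08 in RNA2 (FDR 0.48). Per length, the ratio of SerT to DAT was 1.29 to 1.45 in the controls and 0.840 to 0.913 in RNA1, which did not overlap. In RNA2 it was 1.35 and 1.12, between the RNA1 and control values in 1 library and within the control range in the other. RNA2 against RNA1 was log2 0.24 ± 0.10 for SerT (unadjusted edgeR p 0.034, FDR 0.61) and -0.24 ± 0.08 for DAT (p 0.017, FDR 0.49).

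The wider transmitter machinery was read from 30 further genes for synthesis and cofactors, transport, and breakdown or recycling. None of the 30 passed edgeR in RNA1 (6 at an unadjusted p under 0.05, 3 called by DESeq2 and 0 by limma-voom). Over all genes in that comparison 26.7% had an unadjusted p under 0.05, 14.8% were called by DESeq2 and 10.3% by limma-voom, so the list's shares lay below the background. None passed in RNA2 either (8 at an unadjusted p under 0.05, 4 called by DESeq2 and 1 by limma-voom), where the shares over all genes were 18.4%, 8.31% and 3.74%. There the list's shares lay above the background at the unadjusted p and by DESeq2, and below it by limma-voom. Their median fold change was log2 -0.11 in both comparisons, with 23 of 30 negative in RNA1 and 21 in RNA2. Of all 11081 genes tested, 5387 were negative in RNA1 and 5342 in RNA2. Those named next were chosen after their values were seen. The 3 that DESeq2 called in RNA1 were Pu (log2 -0.71, FDR 0.0066), amd (-0.62, FDR 0.012), a relative of Ddc that acts in cuticle, and Hn (0.37, FDR 0.022). Hn, phenylalanine hydroxylase, makes tyrosine, the substrate of ple, and stood at log2 0.38 ± 0.11 by edgeR (FDR 0.063). In RNA2 DESeq2 called Pu (log2 -1.08, FDR 0.00013), pr (-0.88, FDR 0.0027), the glial glutamate transporter Eaat1 (-0.35, FDR 0.048) and ChT (-0.63, FDR 0.038), a choline transporter. By edgeR Pu was at log2 -0.70 ± 0.23 in RNA1 (FDR 0.094) and -1.07 ± 0.26 in RNA2 (FDR 0.075). ChT overlaps CG46318 on its own strand over 69.5% of its exon length and is uncertain. The serotonin enzyme Trhn, tryptophan hydroxylase, was at log2 -0.21 ± 0.07 in RNA1 (edgeR FDR 0.099) and -0.16 ± 0.08 in RNA2 (FDR 0.33).

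Levels were then set against other neuronal transcripts of the same library, by subtracting the mean log2 CPM of the 15 pan-neuronal markers. None of these markers passed edgeR in either knockdown, with 1 at an unadjusted p under 0.05 in each, and the 15 had medians of log2 -0.05 in RNA1 and -0.03 in RNA2. Measured this way ChAT was 0.37 lower on the log2 scale in the 5 knockdown libraries than in the 3 controls (-2.17 ± 0.13 against -1.80 ± 0.06, SD). VGAT differed by -0.29, VGlut by -0.25 and Vmat by -0.28 on the same scale. For these 4 genes every knockdown library lay below every control, and how many of all genes tested do so was not counted. An exact two-sided permutation test gave each of the 4 p = 0.036, the smallest that 5 against 3 libraries allow, and 0.089 after adjustment over the 10 genes. SerT at -0.40, VAChT at -0.27 and Gad1 at -0.20 had an exact permutation p of 0.071 (adjusted 0.10). Ddc, ple and DAT stood at -0.15, -0.21 and 0.06. These values pool both knockdown groups. Against control, RNA1 and RNA2 stood at -0.37 and -0.16 for VGAT, at -0.50 and -0.25 for SerT, at -0.04 and -0.48 for ple and at 0.15 and -0.08 for DAT, and the difference between the groups was not tested on this scale. No gene therefore passed 0.05 after adjustment, which would have needed at least 8 of the 10 at the smallest p.

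Markers of other head cells were read beside the shares over all genes tested. In RNA1 5.25% of all genes fell and 5.01% rose, and in RNA2 2.02% fell and 1.76% rose. Of 13 glial markers 4 fell in RNA1 and 4 in RNA2, with medians of log2 -0.18 and -0.34. Their summed level was 3764 to 4187 CPM in the controls, 3334 to 3774 in RNA1 and 3028 and 3494 in RNA2. Gs2, Eaat1 and Gat are in this list and also among the wider transmitter genes. Of the 7 hemocyte markers tested, 4 rose in RNA1 and 2 in RNA2, with medians of log2 1.09 and 0.80. Their sum went from 452 to 469 CPM in the controls to 474 to 599 in RNA1 and 577 and 531 in RNA2. The hemocyte marker He was near 0, at 0.169 CPM in the controls, and was not tested. Some tested markers were also low in the controls, with eater at 2.01 CPM and the fat body markers Yp1 and Yp2 at 0.337 and 1.20 CPM. Of 12 fat body markers, 2 rose and 1 fell in RNA1 and 1 rose and 1 fell in RNA2, with medians of log2 0.49 and 0.31. The sum was 2671 to 3211 CPM in the controls, 2824 to 4269 in RNA1 and 4456 and 3244 in RNA2. Of 13 photoreceptor markers 1 fell in RNA1 and none in RNA2 (2 at an unadjusted edgeR p under 0.05, beside 18.4% of all genes). The 9 muscle markers summed to 11505 to 13607 CPM in the controls, 10415 to 11819 in RNA1 and 10766 and 12068 in RNA2, and 1 rose in each knockdown. The part of these cell types in the levels of the transmitter genes was not tested.

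For each gene that passed in either knockdown, the genes with the most similar profile were found by the root mean square difference of log2 CPM over the 8 libraries, each profile centred on its own mean. ChAT was closest to Wbp2 (0.028 log2 units), Swip-1 (0.032) and rin (0.044), beside its own SD of 0.21 between libraries. VGAT was closest to SoxN (0.041), CG15412 and Atx2, and Vmat to rin (0.046), fipi and CG1146. SerT was closest to bero (0.051), Drgx and CG4577. No other gene of the 10 was among these.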

How the data were processed

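The members and gene lists were chosen with earlier results of these data known. The authors deposited whole-number read counts per gene and library, not normalized in any way. The submitters' processing notes name bcl2fastq 2.17, cutadapt 1.18, FastQC 0.11.8, STAR 2.6.1 and SAMtools 1.8 on build BDGP6, with DESeq2 1.24.0. Libraries were made with a stranded mRNA kit, per the labels' protocols. The counting tool, how it used strand and which gene annotation it read: not given in the sources used here.

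Columns were matched to samples by library name and samples to groups by title. Symbols were found for 17549 of 17676 genes. Coordinates and exon lengths come from Ensembl release 115 (BDGP6), which may differ from the authors' annotation. In R 4.3.3, edgeR 4.0.16 kept 11081 genes (filterByExpr, minimum count 10, minimum total 15), scaled libraries by TMM and fitted 1 robust quasi-likelihood model, with 3 group means, to all 8 libraries. FDR is Benjamini-Hochberg over all genes tested, with a threshold of 0.05. "Rose" and "fell" mean past it. SE is the absolute log2 fold change over the square root of F. Log2 CPM used a prior count of 1. The code was tested on simulated data, for RNA1 against control, with 200 genes changed and the same spread for every gene. It recovered 0% of changes of log2 0.3, 21.5% of those of 0.5 and 90% of those of 1. A small change that did not pass is therefore not shown to be absent. The simulated rates hold for that spread and number of changed genes, and Vmat passed in RNA1 at log2 -0.32. Alternatives were DESeq2 size factors, library totals, other filters, the DESeq2 1.42.0 test, limma-voom (limma 3.58.1), a replicate block, fits of only the groups compared, and each library left out. Per-length ratios were added after seeing the data. The naming rule took the 10 members, FBXO11, any of the 30 further genes past the threshold (up to 12 by FDR, but none passed), and the 3 nearest profiles of each gene that passed. Those of the 30 that the text names fall outside it and were chosen after their values were seen. Of the list entries 1 (speck, in 2 lists) was not matched. Chi-square tests of counts within groups gave 23.1 to 68.3 per degree of freedom, so each library counted as 1 replicate.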

Additional observations from a re-analysis of the deposited data

How the results depend on the processing

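Counts of the 10 genes called in RNA1 stayed at 4 in every alternative except the replicate block, at 3, and single libraries left out, at 2 to 4. In RNA2 the count was 1, or 3 with DESeq2, 0 with the replicate block and 0 to 1 with single libraries left out. Between RNA2 and RNA1 it was 0 in each. Where an RNA2 library was left out, the remaining 1 was assumed to vary like the other groups. Of the 30 further genes, library totals called 1 in RNA1, DESeq2 3 and the fit of only the groups compared 3 (0 to 3 with single libraries left out). In RNA2 DESeq2 called 4, limma-voom 1 and the replicate block 1 (0 to 2 with single libraries left out). Replicate numbers were not treated as pairs: the 7 same-numbered pairs of libraries had correlations of deviations from -0.22 to 0.15, 1 of them over 0.1, and 0 of 3 controls correlated best with the RNA1 library of their own number. Under the block Vmat in RNA1 had an FDR of 0.059 and ChAT in RNA2 0.070.

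Sign changes concerned comparisons in which no setting called the gene, and the cause was not tested. For RNA2 against RNA1, Vmat was at log2 -0.0089 under the block and -0.0091 without RNA1 replicate 3 (up to 0.081 with single libraries left out). VGlut ran from -0.11 to 0.024 there, highest without RNA1 replicate 2. Without RNA2 replicate 1, VGlut was at 0.0045, VAChT at 0.038 and ple at 0.080 in that comparison, and ple at 0.0082 in RNA2 against control; without RNA2 replicate 2, VAChT was at -0.25, and ple at -1.04 and -1.11. In RNA1, ple was at 0.10 without control replicate 3, 0.064 without RNA1 replicate 2 and -0.23 without control replicate 1. Per length, Gad1 moved to 381 by the longest transcript and 342 by library totals, and Vmat to 88.0 by the longest transcript. Relative to pan-neuronal markers 0 genes passed with the median of the markers, library totals or a prior count of 0.25. With a library left out no gene could pass, since the smallest exact p was 0.057 or 0.095. Over all genes, calls in RNA1 went from 1137 to 535, 476 and 548 without control replicates 1, 2 and 3 and to 570 without RNA1 replicate 2 (highest 1189). In RNA2 they went from 419 to 902 with DESeq2, 214 under the block, 253, 206 and 203 without control replicates 1, 2 and 3 and 115 without RNA2 replicate 1 (highest 561). Between RNA2 and RNA1 they went from 31 to 147 with DESeq2, 17 under the block and 17 to 40 with single libraries left out. Library totals moved the share of higher calls from 48.8% to 60.1% in RNA1 and from 46.5% to 56.5% in RNA2.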

Other observations

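Histamine is the transmitter of fly photoreceptors, and octopamine and tyramine are made from tyrosine by other enzymes. The genes below were chosen after their values were seen. Hdc, histidine decarboxylase, was at 152 to 174 CPM in the controls, 131 to 155 in RNA1 and 147 and 154 in RNA2 (edgeR FDR 0.17 and 0.59 against control). The gene t (tan), whose enzyme frees histamine and dopamine from their beta-alanine conjugates, was at 526 to 574 CPM in the controls, 495 to 515 in RNA1 and 489 and 539 in RNA2. Tdc2, the neuronal tyrosine decarboxylase, was at 18.7 to 21.6 CPM in the controls, 17.1 to 17.6 in RNA1 and 18.5 and 20.7 in RNA2. Tbh, which turns tyramine into octopamine, was at 63.0 to 68.8 CPM, 65.6 to 71.1 and 68.0 and 71.5 in the same order. Tdc2 was lower in all RNA1 libraries than in the controls (log2 -0.23 ± 0.09, FDR 0.13), while the values of Tbh overlapped in all groups.

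Per length, the ratio of VGAT to Gad1 was 0.150 to 0.159 in the controls and 0.125 to 0.144 in RNA1, which did not overlap, and 0.165 in both RNA2 libraries. These ratios were computed after the data were seen and were not tested.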
